A study of Mus musculus with 6 samples.

Results

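The 10 genes described here encode the cyclins, cyclin-dependent kinases (CDKs) and CDK inhibitors of the G1 phase of the cell cycle. They are the D cyclins Ccnd1, Ccnd2 and Ccnd3, the kinases Cdk4, Cdk6 and Cdk2, the Cip/Kip inhibitors Cdkn1a, Cdkn1b and Cdkn1c, and the INK4 inhibitor Cdkn2c. They were taken by symbol from tables of 48397 gene symbols, and all 10 were found and tested among 16198 genes. The cells came from lungs of mice at postnatal day 8 that carried 1 green Pdgfra reporter allele (PdgfraEGFP/+), in both groups. Their dams, pregnant with reporter litters, received an intraperitoneal dose of the anti-hedgehog antibody 5E1 or of control IgG on the day labelled E18.5 of gestation, and each group has 3 libraries of sorted live EGFP-positive cells. The reporter follows a receptor gene of lung mesenchyme, so the sort takes several fibroblast types together, and cells that had lost the reporter would be missing. Whether the 3 libraries are from different pups, from pools or from different litters is not stated in the labels, so each p-value covers the spread among these libraries only. Sex-linked reads, given below, put cells of both sexes in most libraries, so those libraries hold more than 1 pup. Sample numbers in the titles run through IgG first and then 5E1, so that order and antibody cannot be told apart.

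In G1, D cyclins bind CDK4 or CDK6 and start the phosphorylation of RB, which holds back the E2F factors. Cyclin E with CDK2 completes it and cells enter S phase. INK4 proteins bind CDK4 and CDK6 alone, while Cip/Kip proteins (p21, p27 and p57) bind cyclin-CDK complexes and inhibit CDK2. Ccnd1 and Ccnd2 are known targets of hedgehog signalling in several tissues, and hedgehog ligands from the lung epithelium act on the mesenchyme. The comparison of 5E1 with IgG asks how the mesenchyme differs at postnatal day 8 after the antibody was given late in gestation.

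Reads assigned to genes numbered 16958433 to 28405457 in IgG and 18857199 to 34318583 in 5E1 libraries. The antibody's readout was lower in every 5E1 library: Ptch1, a receptor gene that the pathway induces, measured 405 to 415 normalised read counts (CPM, on library sizes scaled by TMM, the trimmed mean method of edgeR) in IgG and 82.1 to 102 CPM in 5E1. Gli1 and Hhip, both pathway targets, had log2 fold changes of -1.12 and -2.37. The mesenchymal markers Col1a1, Col1a2 and Col3a1 were abundant in every library, and of the 8 mesenchymal markers 3 rose and none fell, with a summed level of 46456 to 64657 CPM in IgG and 59020 to 104804 CPM in 5E1. At an unadjusted p under 0.05, 7 of these 8 were higher and none lower. Of all 16198 genes tested, 3008 were higher and 2906 lower at that threshold. Leukocyte markers rose in 7 of 10, with a summed level of 112 to 135 CPM in IgG and 248 to 415 CPM in 5E1. S100a8 and S100a9 rose most, 16.3-fold and 11.9-fold, while Lyz2, Csf1r and Cd68 did not pass. Apart from Lyz2, these are named outside the naming rule. Of the epithelial markers 1 of 10 rose (436 to 688 CPM in IgG, 485 to 1489 in 5E1), and of the endothelial markers 1 of 8 (109 to 133 and 119.7 to 272 CPM). The upper ends in 5E1 are those of replicate 2. Among the 5E1 libraries, every epithelial marker and every endothelial marker but Tek was highest there. Scgb1a1 measured 376, 239 and 489 CPM in IgG replicates 1 to 3, and 256, 999 and 288 CPM in 5E1 replicates 1 to 3. No marker of these lists was at 0 in any library. The most abundant of each list over the 6 libraries were Col3a1 (20591 and 32135 CPM on average in IgG and 5E1), Lyz2 (64.3 and 119), Scgb1a1 (368 and 514) and Tek (24.8 and 45.4). Whether these cells take part in the differences below was not tested.

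Of the 10 genes, 5 fell and 3 rose in 5E1. Ccnd1, Ccnd2, Cdk4, Cdk2 and Cdkn2c fell, Ccnd3, Cdkn1a and Cdkn1c rose, and Cdk6 and Cdkn1b did not pass the test. A gene was called at an adjusted p under 0.05 in edgeR's quasi-likelihood test over all genes. Of all genes tested, 11.1% were called lower, 12.1% higher and 23.2% either way. The 3 libraries of one group did not overlap those of the other for 9 of the 10 genes, against 42.2% of all genes. Mean levels of the 10 lie between percentile 68.0 and 97.9 of the genes tested. Their median log2 fold change was -0.32, and that of all genes 0.00087. With library size alone in place of the trimmed mean, the median of all genes moved to -0.14, and 6 of the 10 were lower and 2 higher, against 20.2% of all genes lower and 8.10% higher in that fit. In bulk RNA, fewer cells with a transcript and less transcript per cell cannot be told apart.

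**Figure D1:**
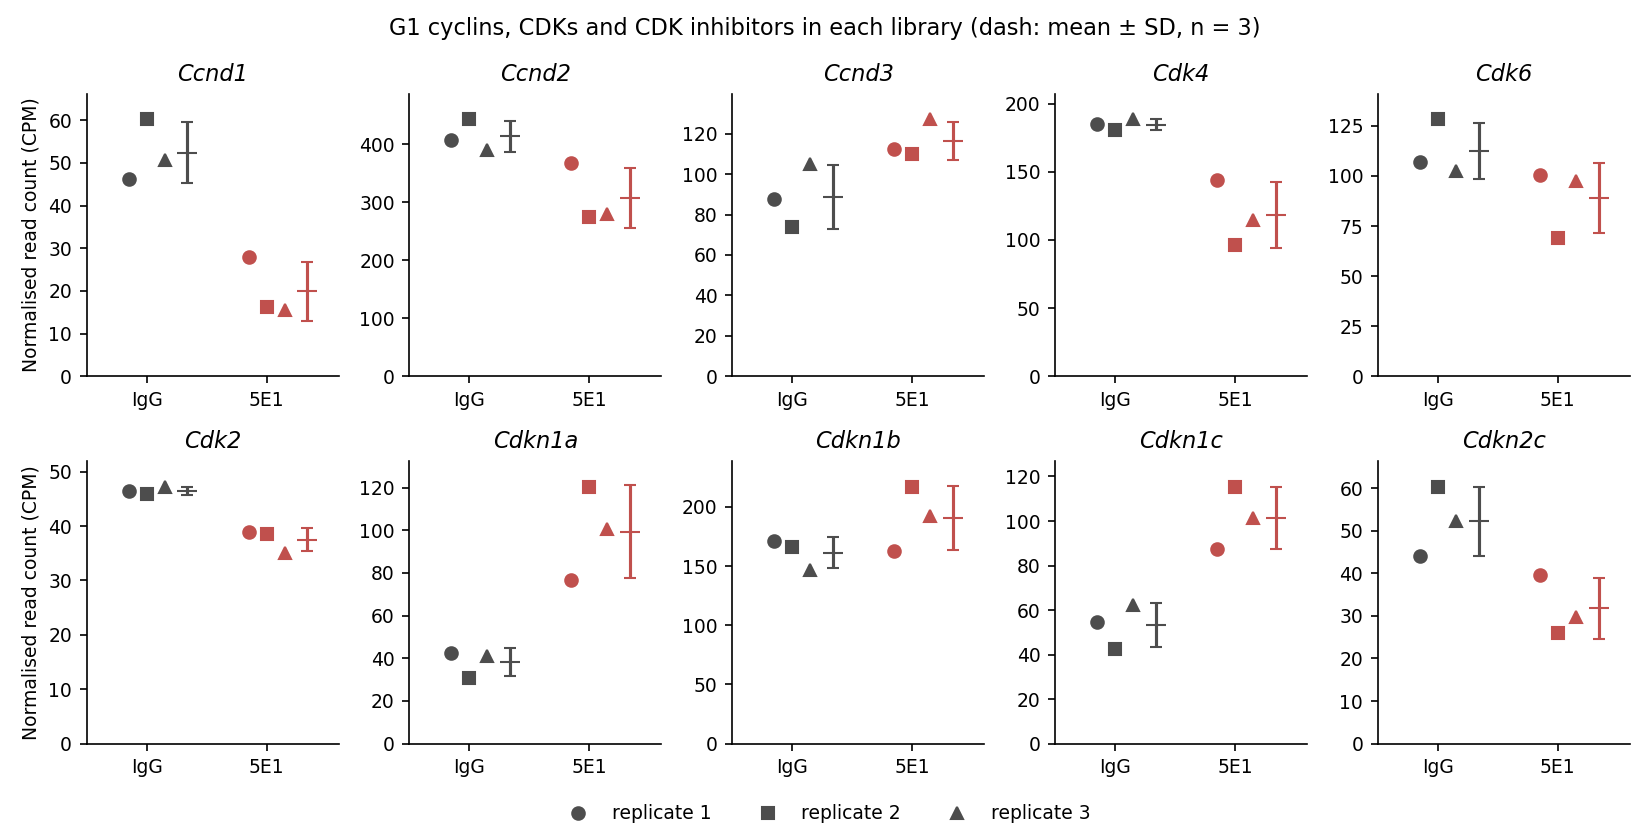
Normalised read counts (CPM, vertical axes from 0) of the 10 genes in each IgG (grey) and 5E1 (red) library, with the replicate number as the symbol and the mean and SD (n = 3) as a bar. Only Cdkn1b overlaps between the groups, and 5E1 replicate 1 is the 5E1 library nearest to IgG for 9 of the 10.

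**Figure D2:**
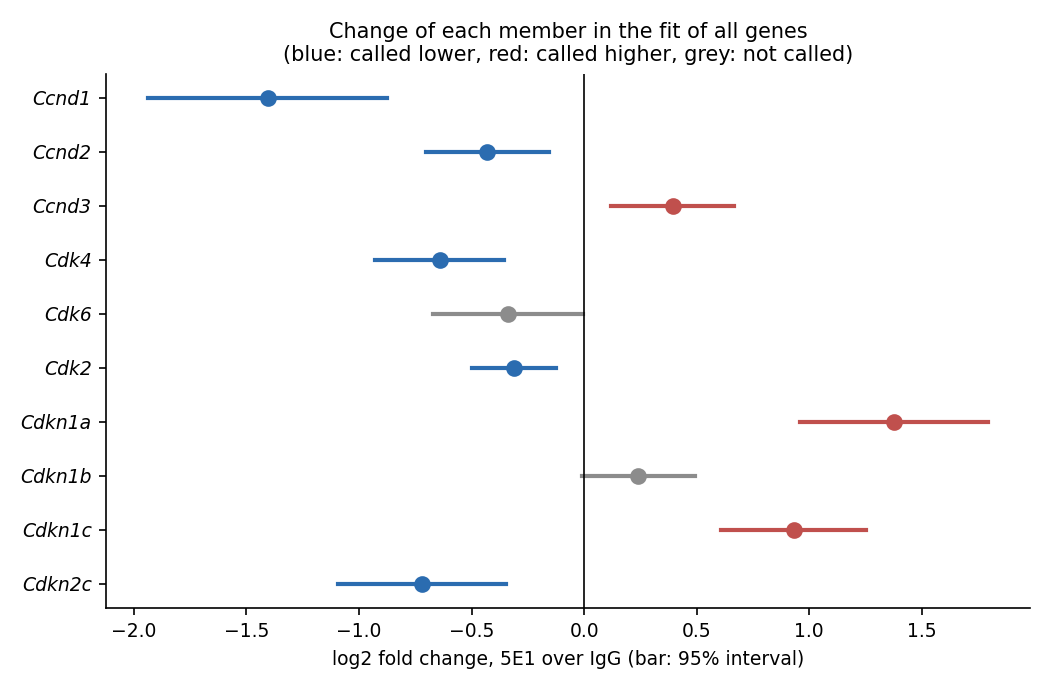
Log2 fold change (5E1 over IgG, horizontal axis) of each gene with its 95% interval from the fit of all genes. Ccnd1 at -1.40 and Cdkn1a at 1.38 lie farthest from 0 on either side, and the interval of Cdkn1b spans 0.

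The D cyclins moved in different directions. Ccnd1 (chromosome 7, 144929931 to 144939925, minus strand, mm10) encodes cyclin D1. It measured 46.2, 60.3 and 50.6 CPM in IgG replicates 1 to 3 and 27.9, 16.3 and 15.5 CPM in 5E1 replicates 1 to 3. Every 5E1 library was below every IgG library. The mean went from 52.4 ± 7.18 to 19.9 ± 6.94 CPM (SD, n = 3 each), 2.65-fold lower, with a log2 fold change of -1.40 (SE 0.23) and an adjusted p of 0.00462.

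Ccnd2, which encodes cyclin D2 (chromosome 6, 127125162 to 127152193, minus strand), had the highest read count of the 10. It measured 408, 443 and 389.7 CPM in IgG and 368, 274 and 279 CPM in 5E1. The groups were apart, but 5E1 replicate 1 lay close below the lowest IgG library. The log2 fold change was -0.43 (SE 0.12, adjusted p 0.0295), a 1.35-fold lower level. It no longer passed, at an adjusted p of 0.0526 to 0.1002, without any one IgG library or without 5E1 replicate 2 or 3.

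Ccnd3, the cyclin D3 gene (chromosome 17, 47505051 to 47599691, plus strand), ran the other way. Its levels were 87.5, 73.6 and 105 CPM in IgG and 112, 110.03 and 127 CPM in 5E1. The 5E1 libraries were all higher, by a small margin over IgG replicate 3. The log2 fold change was 0.39 (SE 0.12, adjusted p 0.0419), 1.31-fold higher. The call ended with library size alone (log2 fold change 0.24, adjusted p 0.141), and, at 0.0525 to 0.143, without IgG replicate 1 or 2 or without any one 5E1 library.

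Among the kinases, Cdk4, the partner of the D cyclins (chromosome 10, 127063534 to 127067920, plus strand), fell most. It measured 185, 180.4 and 189 CPM in IgG and 144, 96.4 and 115 CPM in 5E1. The IgG libraries lay close together and all 5E1 libraries were below them. The mean went from 185 ± 4.11 to 118 ± 24.1 CPM (SD, n = 3 each), with a log2 fold change of -0.64 (SE 0.13, adjusted p 0.00604). Cdk2, the kinase of cyclins E and A (chromosome 10, 128697939 to 128705031, minus strand), measured 46.4, 45.8 and 47.2 CPM in IgG and 38.9, 38.6 and 35.0 CPM in 5E1. Its difference was small beside tight groups, at a log2 fold change of -0.31 (SE 0.09, adjusted p 0.0238). That call ended, at 0.0582 to 0.0912, without any one IgG library or without 5E1 replicate 3. Cdk6 (chromosome 5, 3341485 to 3531008, plus strand), which shares the D cyclins with Cdk4, measured 107, 128 and 102 CPM in IgG and 101, 68.8 and 97.7 CPM in 5E1. The groups nearly touched at IgG replicate 3 and 5E1 replicate 1. The log2 fold change was -0.34 (SE 0.15, 95% interval -0.67 to -0.0041) and the adjusted p 0.133 did not pass. It did pass with library size alone (0.0223) and with no low-count filter (0.00372).

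The promoters of Cdk4 and Cdk2, both of which fell, are shown for the binding motifs they hold (RefSeq, GRCm38.p6, the 250 bases before the start, 5′ to 3′ on the gene's strand). Capitals mark E-boxes (CACGTG, a palindrome bound by MYC among others) in Cdk4, at chr10:127063285-127063534, and an E2F motif (TTTNNCGC on either strand) in Cdk2, at chr10:128705052-128705301.
Cdk4: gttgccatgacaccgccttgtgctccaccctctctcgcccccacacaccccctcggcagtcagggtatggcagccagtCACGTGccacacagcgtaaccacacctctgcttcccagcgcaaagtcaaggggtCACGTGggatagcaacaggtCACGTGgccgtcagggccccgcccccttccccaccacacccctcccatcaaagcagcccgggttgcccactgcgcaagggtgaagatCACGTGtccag
Cdk2: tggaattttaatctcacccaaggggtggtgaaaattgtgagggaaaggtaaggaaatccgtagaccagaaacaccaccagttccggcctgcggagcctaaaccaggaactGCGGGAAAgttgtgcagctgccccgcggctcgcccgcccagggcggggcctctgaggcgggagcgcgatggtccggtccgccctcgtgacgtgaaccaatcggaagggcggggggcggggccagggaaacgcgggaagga
The Cdk4 window holds 4 E-boxes, whose first bases lie 172, 118, 98 and 11 bases before the start. The Cdk6 window, not shown, holds 1 E-box and 1 E2F motif, and Cdk6 did not pass the test. The Cdkn2c windows hold neither, and Cdkn2c fell. Whether any of these motifs takes part in the differences was not tested. GC boxes (GGGCGG) were searched too, with 5 in the Cdk2 window and 1 in that of Cdk4, left in lower case. They were found in 55.2% of promoters of tested genes. An E-box was found in 7.89% and an E2F motif in 6.55% of 14245 promoters of tested genes. The GLI motif GACCACCCA, searched on either strand, was in 0.204% of promoters and in none of the windows of the 7 genes of this group with an entry. Those are Ccnd3, Cdk4, Cdk6, Cdk2, Cdkn1a, Cdkn1b and Cdkn2c, while Ccnd1, Ccnd2 and Cdkn1c had none. The motif TTTGAA, in 10.8% of promoters, was in none of the windows of those 7 genes either. These matches describe the letters of the windows and not bound sites, and the motifs were chosen after the values were seen.

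The Cip/Kip inhibitors were higher or did not pass. Cdkn1a, which encodes p21 and is induced by p53 and by other signals (chromosome 17, 29090976 to 29100727, plus strand), had the smallest adjusted p of the 10. It measured 42.6, 30.8 and 41.1 CPM in IgG and 76.9, 120.4 and 101 CPM in 5E1. All 5E1 libraries were well above the highest IgG library. The mean went from 38.2 ± 6.45 to 99.3 ± 21.8 CPM (SD, n = 3 each), 2.60-fold higher, with a log2 fold change of 1.38 (SE 0.18) and an adjusted p of 0.00151. Cdkn1c, the imprinted gene of p57 that is expressed from the maternal allele (chromosome 7, 143458339 to 143461050, minus strand), measured 54.8, 42.6 and 62.1 CPM in IgG and 87.6, 115 and 101 CPM in 5E1. Its groups were apart too, with a log2 fold change of 0.93 (SE 0.14, adjusted p 0.00202), a 1.91-fold higher level. Cdkn1b, the p27 gene (chromosome 6, 134920401 to 134925513, plus strand), is regulated largely through protein turnover. It measured 171, 166 and 147 CPM in IgG and 163, 217 and 192 CPM in 5E1. The groups overlapped, because 5E1 replicate 1 lay among the IgG libraries. The log2 fold change was 0.24 (SE 0.11, 95% interval -0.0087 to 0.49) and the adjusted p 0.150 did not pass, except without 5E1 replicate 1 (0.0441).

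Cdkn1a has 2 annotated starts in RefSeq, and the window of the upstream one is shown because it holds a p53-type pair, searched as a pair of CATG cores with 6 bases between them, a spacing that reads the same on both strands. The window lies at chr17:29090729-29090978 (GRCm38.p6, plus strand), and capitals mark the pair, which begins 48 bases before that start.
Cdkn1a: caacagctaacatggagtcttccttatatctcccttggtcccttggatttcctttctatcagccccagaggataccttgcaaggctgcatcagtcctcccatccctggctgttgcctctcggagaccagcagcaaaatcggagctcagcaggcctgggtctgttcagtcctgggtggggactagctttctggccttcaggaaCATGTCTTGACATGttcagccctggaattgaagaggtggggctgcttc
Such a pair was in 0.302% of the 14245 promoters. The counts per gene do not tell which start the reads came from. This motif too was chosen after the values were seen.

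Cdkn2c encodes p18, an INK4 inhibitor of CDK4 and CDK6 (chromosome 4, 109660876 to 109667189, minus strand), and it fell although it is an inhibitor. It measured 44.0, 60.3 and 52.2 CPM in IgG and 39.6, 25.9 and 29.7 CPM in 5E1. The groups were apart, with 5E1 replicate 1 nearest to IgG. The log2 fold change was -0.72 (SE 0.17, adjusted p 0.0141), a 1.65-fold lower level, and the adjusted p was 0.0572 without 5E1 replicate 3. Of the other INK4 genes, Cdkn2d measured 35.1 and 34.1 CPM on average and Cdkn2b 0.954 and 0.724 CPM, and neither passed (adjusted p 0.843 and 0.509). Cdkn2a was too low to be tested, with 24, 10 and 7 reads in the IgG libraries and 5, 0 and 0 in the 5E1 libraries. These 3 are named to complete the INK4 family.

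Dividing by the union of annotated exons puts the genes on one scale of CPM per kilobase. In IgG the order was Cdk4 (56.8 ± 1.27), Ccnd2 (43.95 ± 2.88), Cdkn1b (35.4 ± 2.84), Cdkn1c (26.1 ± 4.85) and Cdkn2c (19.4 ± 3.04, SD, n = 3). Among these, only the mean ± SD ranges of Cdkn1c and Cdkn2c overlapped. Below them came Ccnd1 (11.1 ± 1.52), Cdkn1a (10.7 ± 1.81), Ccnd3 (10.1 ± 1.79), Cdk6 (8.04 ± 0.996) and Cdk2 (7.47 ± 0.115), each with a range that overlapped that of the next. In 5E1 the per-kilobase order began with Cdkn1c (49.7 ± 6.81) and Cdkn1b (41.9 ± 5.99), 2 inhibitors, followed by Cdk4 (36.5 ± 7.42), Ccnd2 (32.6 ± 5.57) and Cdkn1a (27.96 ± 6.13). Among these 5, neighbouring ranges overlapped, while Ccnd3, the sixth, lay below Cdkn1a at 13.3 ± 1.06. Ccnd1 was last, at 4.23 ± 1.47. With the longest transcript as the length, Cdk4 was first in both groups (89.9 ± 2.002 in IgG and 57.7 ± 11.7 in 5E1), so the place of single genes depends on the length used.

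Within the D cyclins, Ccnd2 made up the most per kilobase in every library, at 62.5% to 68.97%. The share of Ccnd1 was 15.5%, 18.7% and 16.8% in IgG and 10.3%, 7.67% and 6.95% in 5E1. That of Ccnd3 was 15.8%, 12.3% and 18.6% in IgG and 22.2%, 27.8% and 30.5% in 5E1, so the order of these 2 cyclins was mixed in IgG and Ccnd3 was above Ccnd1 in every 5E1 library. With the longest transcript as the length, Ccnd3 was above Ccnd1 in all 6 libraries. The D cyclin sum was 65.2 ± 2.73 CPM per kilobase in IgG and 50.2 ± 6.73 in 5E1. For the Cip/Kip genes the sum was 72.2 ± 5.57 and 119.6 ± 18.9 CPM per kilobase, the reverse direction. Cdkn1b made up 49.3% ± 5.91 of the Cip/Kip sum in IgG and 35.1% ± 0.542 in 5E1, and Cdkn1a 14.8% ± 1.44 and 23.2% ± 1.51.

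**Figure D3:**
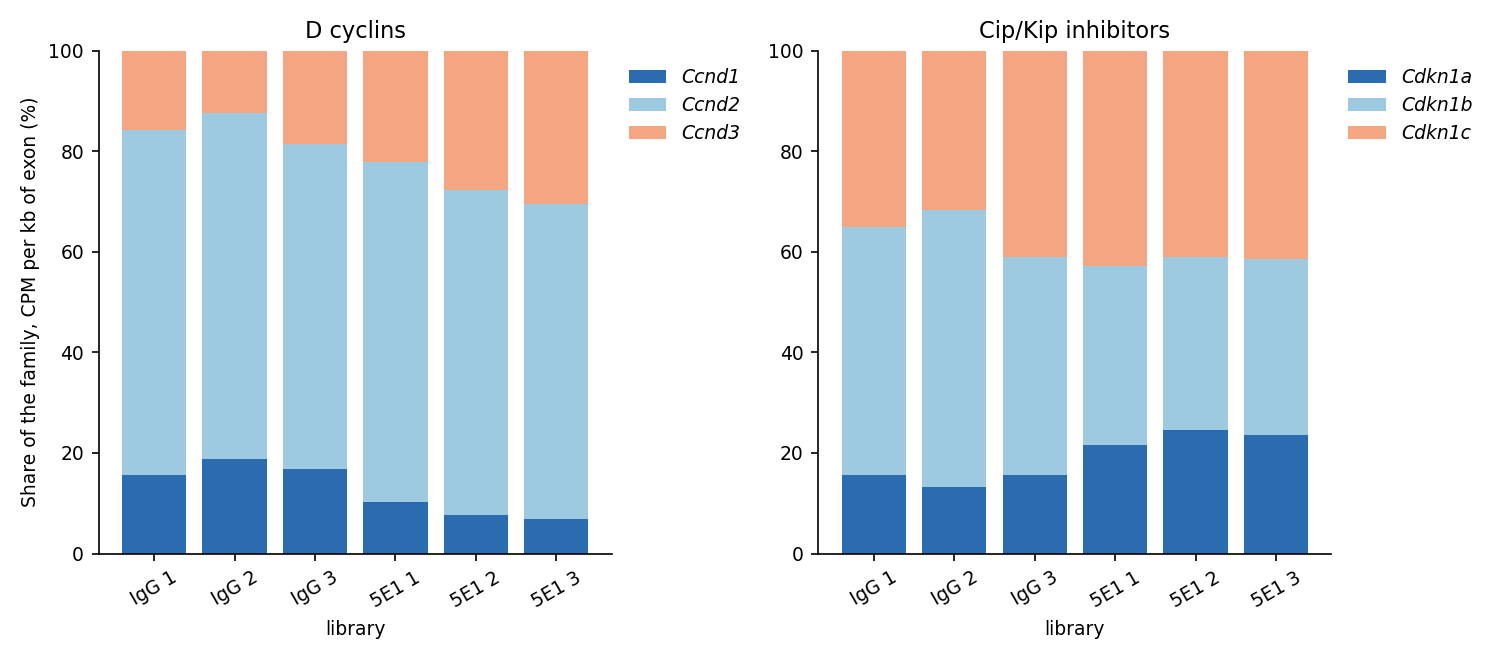
Share (%) of each gene in the summed CPM per kilobase of exon of the D cyclins (left) and of the Cip/Kip inhibitors (right), 1 bar per library. The Ccnd1 share is 15.5% or more in IgG and 10.3% or less in 5E1, and the Cdkn1a share is 15.7% or less in IgG and 21.6% or more in 5E1.

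Ratios of 2 genes within a library do not depend on how libraries are scaled, and 4 were compared by an exact two-sided permutation test. With 3 libraries against 3 an exact test of this kind gives no p below 0.1. The log2 ratio of Ccnd1 to Ccnd2 reads was -2.99 ± 0.14 in IgG and -3.99 ± 0.24 in 5E1 (SD, n = 3 each), a 1.997-fold lower ratio with no overlap (exact permutation p = 0.1, 0.133 adjusted over the 4 ratios). The log2 ratio of Ccnd1 to Ccnd3 differed most, with -0.92, -0.29 and -1.05 in IgG and -2.01, -2.75 and -3.03 in 5E1. That is a 3.59-fold lower ratio, with the same exact permutation p. Cdkn1a rose relative to Cdkn1b, by 1.14 in the log2 ratio, again without overlap and with the same exact permutation p. The log2 ratio of Cdk6 to Cdk4 was 0.31 higher in 5E1 with overlapping groups (exact permutation p = 0.2, adjusted 0.2).

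Of 11 other tested G1/S cyclins, kinases, activators and inhibitors, 6 fell and none rose in edgeR. None was higher at an unadjusted p under 0.05 either, and DESeq2 gave the same 2 counts. The cyclin E genes Ccne2 (12.2 ± 0.579 to 4.78 ± 1.45 CPM) and Ccne1 (14.2 ± 1.42 to 7.67 ± 1.09 CPM, SD, n = 3 each), which activate CDK2, had log2 fold changes of -1.37 and -0.89. Cdc25a, a phosphatase that activates CDK2, fell by 0.52 in log2, and Cdkn3, a phosphatase that acts on CDKs, by 1.47. Cdk7, Ccnh and Mnat1, which form the CDK-activating kinase, measured log2 fold changes of -0.20, -0.05 and 0.06 with adjusted p of 0.10001 to 0.804. They are named as a complex, outside the naming rule.

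Of 13 pocket protein and E2F genes 7 fell and none rose in edgeR (1 was higher at an unadjusted p under 0.05, and DESeq2 gave 6 and none). E2f7 (-1.85) and E2f2 (-0.97) fell, as did E2f3 (-0.67) and Rbl1 (-1.57), which encodes the pocket protein p107. Rb1 itself measured 29.2 and 29.6 CPM on average (adjusted p 0.893, outside the naming rule). Of 10 genes for the turnover of D cyclins and Cip/Kip inhibitors 2 fell and 1 rose. Skp2 (-0.99, adjusted p 0.00221) and Cks1b (-0.68, 0.0124), the ubiquitin ligase subunit and its cofactor that target p27, fell. The call of Cks1b ended at 0.0526 without IgG replicate 3 and 0.0515 without 5E1 replicate 3. Usp2, a deubiquitinase of cyclin D1, rose by 0.62, a call that ended, at 0.0706 to 0.116, with library size alone and without IgG replicate 2 or 3 or 5E1 replicate 3. Gsk3b, a kinase that marks cyclin D1 for degradation, did not pass (-0.30, adjusted p 0.0582), but did with library size alone (0.00691) and no low-count filter (0.0136).

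Among 12 further p53 targets 3 rose and 1 fell, and their median log2 fold change was 0.03. Btg2, an antiproliferative gene, went from 754 ± 158 to 1736 ± 355 CPM (SD, n = 3 each), with a log2 fold change of 1.20. Trp53inp1 (0.90) and Plk3 (0.47) also rose, and the mitotic gene Gtse1 fell by 1.77 in log2. For Trp53inp1 the call was lost without IgG replicate 3 (adjusted p 0.0578). That of Plk3 ended without IgG replicate 2 (0.0738) and with library size alone (0.0832). Mdm2, the p53 feedback gene, measured 56.2 and 53.8 CPM on average (adjusted p 0.711, outside the naming rule).

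Downstream of G1, 12 of 14 S phase genes and 13 of 14 G2 and mitosis genes fell, and the lists had medians of -1.10 and -2.09. None rose in edgeR, none was higher at an unadjusted p under 0.05, and DESeq2 called all 14 lower in each list. Log2 fold changes were -2.20 for Cdc6, -0.79 for Mcm4, -0.53 for Pcna and -1.30 for Tyms, all genes of DNA replication or nucleotide supply. They were -1.9997 for Kif20a, -2.42 for Plk1, -1.16 for Bub1b and -1.99 for Ccnb2, genes of mitosis. Fewer G2 and mitosis genes fell without 5E1 replicate 3 (8) and with no low-count filter (8).

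**Figure D4:**
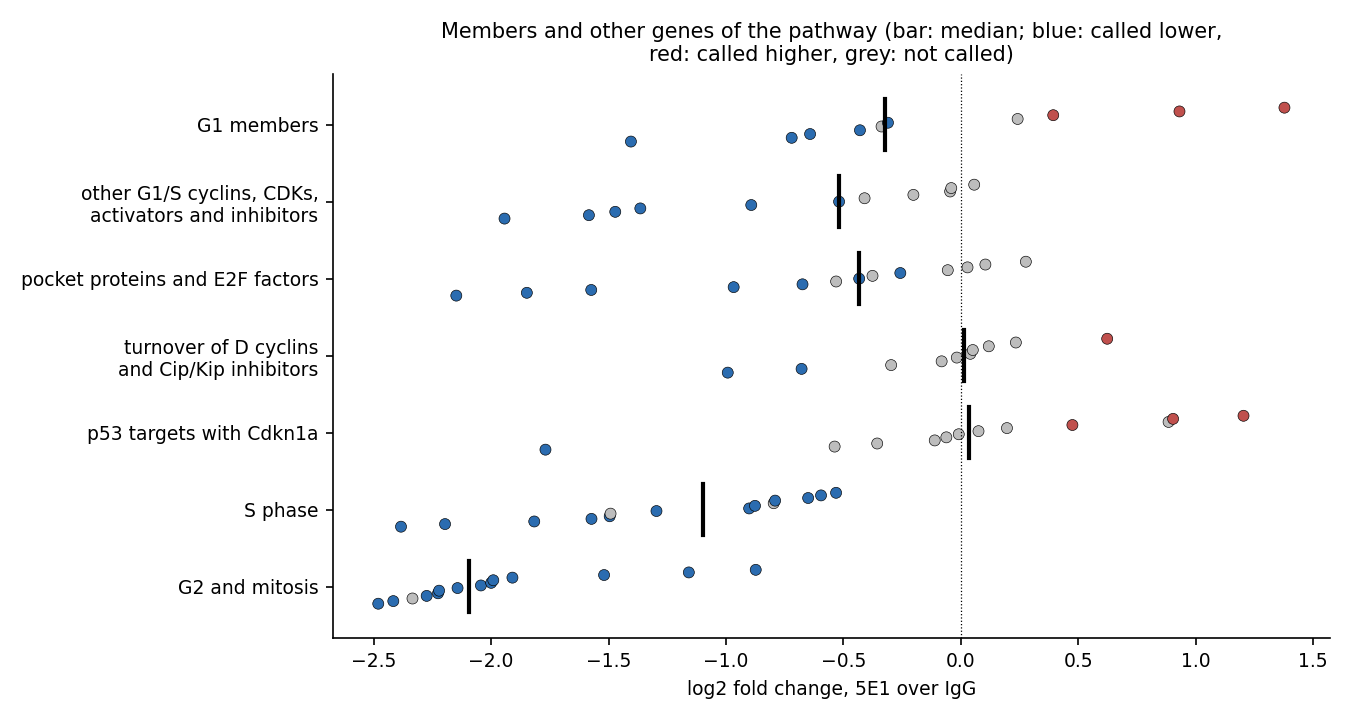
Log2 fold changes (5E1 over IgG, horizontal axis) of the 10 genes and of the other tested genes of the pathway, 1 point per gene by list, with the list's median as a bar. The S phase and the G2 and mitosis points all lie below 0, while the 10 genes lie on both sides of it.

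One 5E1 library stood nearest to IgG for most of the 10 genes. On the log2 scale, 5E1 replicate 1 was nearest to the IgG mean for 9 of the 10, all but Ccnd3. For Cdk2 the margin was narrow (38.9 CPM against 38.6 in 5E1 replicate 2). The same library was nearest for every gene of the G2 and mitosis list, as for Top2a (54.2 CPM against 10.1 and 30.7 in 5E1 replicates 2 and 3). Top2a, named outside the naming rule, did not pass in edgeR (adjusted p 0.0596). The share over all genes was not counted, so the nearness of 5E1 replicate 1 is not shown to be a trait of the 10 genes. For Gli1, Ptch1 and Hhip the nearest was 5E1 replicate 3 for all 3. Left out, 5E1 replicate 1 gave log2 fold changes of -1.72 for Ccnd1 and -0.81 for Cdk4, and 1.53 for Cdkn1a. It is the shallowest 5E1 library, with 18857199 reads, and it has at most 1 read for each of Ddx3y, Eif2s3y, Kdm5d and Uty, on the Y chromosome. IgG replicate 3 is the other library of that kind. The remaining 4 hold 5644 to 12487 reads of Xist together with 1731 to 3665 of Ddx3y. Each of those 4 therefore holds cells of both sexes, from more than 1 pup. With a term for those 2 libraries, each of the 10 genes kept its direction and its side of the threshold.

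Across the 6 libraries, the genes most like Ccnd1 in log2 CPM among 10376 compared were Dbnl, Efr3b and Sema6d (Pearson's r of 0.999, 0.999 and 0.998). Those most like Cdkn1a were Fabp4, Myc and Anxa1 (r of 0.999, 0.999 and 0.998). These r describe 6 points that fall into the 2 groups and share library depth, so they carry no p. Symbols shaped like those of unnamed gene models were not compared, which left out the E2f genes too. Myc, which encodes a transcription factor that promotes entry into the cell cycle, measured 40.7, 30.6 and 40.2 CPM in IgG and 72.5, 105.5 and 86.0 CPM in 5E1. Myc was picked for its likeness to Cdkn1a in these same libraries. Its higher level in every 5E1 library, with a log2 fold change of 1.24, follows from that choice and is no separate result.

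Exons of 8 of the 10 genes overlap an exon of a gene on the opposite strand, all but Cdkn1b and Cdkn2c. The overlap is 1100 of 4709 bases for Ccnd1, 641 of 3249 for Cdk4 and 625 of 2039 for Cdkn1c, and 34 to 740 bases for the others. The kit marks strand, but the strand setting of the counting is not given in the sources used here, so these counts may hold or lack reads of the partner. Of the 9 partners 5 were tested, and whether their reads take part in the values above was not tested. LTO1, the partner of Ccnd1 (Oraov1 in the count tables), measured 17.2 and 13.7 CPM on average in IgG and 5E1 (adjusted p 0.110), Tspan31, that of Cdk4, 44.7 and 37.02 CPM (0.0600), and Pmel, that of Cdk2, 1.30 and 1.97 CPM (0.312). Bysl, that of Ccnd3, fell from 13.3 to 8.84 CPM (adjusted p 0.0191). For Ccnd2, 9330179D12Rik rose from 0.104 to 0.661 CPM (adjusted p 0.0352), on 63 reads in all 6 libraries. The other partners were not tested. Gm43126 of Ccnd2 and Gm44732 of Cdkn1c had 0 reads, and Gm17590 of Cdk6 had 6 reads in all. AC167363.2 of Cdkn1a was not found by name in the count tables. The partners are given in full, outside the naming rule.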

How the data were processed

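Bulk RNA sequencing of 6 libraries was used, 3 per group. Each deposited file gives a library's raw read counts by gene symbol. Its 5 HTSeq summary lines, which took 36.4% to 54.7% of all reads, mostly unaligned, were dropped before any step. The submitters' processing notes list R 3.5.1, DESeq2 1.10.0, HTSeq 0.6.0, bedtools 2.17.0, Picard 1.126 and STAR 2.5.0c, and the build mm10, without saying what each did. Which annotation and strand setting were used, and how duplicates were handled, is not given in the sources used here.

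Genes were kept by filterByExpr (minimum count 10, minimum total 15), scaled by TMM and fitted in R 4.3.3 with edgeR 4.0.16 (robust glmQLFit, glmQLFTest, group as the only term, prior count 0.125). Tests were two-sided, with Benjamini-Hochberg adjustment across the 16198 genes. The SE is the coefficient before shrinkage divided by the root of F. Alternatives used DESeq2 1.42.0 and limma 3.58.1 among others. Positions and exon lengths are from GENCODE M21 on GRCm38, the build of mm10, which held 15706 of the tested symbols. Each of the 10 genes had between 422 and 11974 reads in a library, and reads are not independent molecules.

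The members and the lists were chosen with earlier results of these data known. Named are all 10 genes, up to 4 of each pathway list by smallest p, Gli1, Ptch1, Hhip, the most abundant gene of each marker list, and 3 genes most like Ccnd1 and Cdkn1a, with mean of at least 5 CPM.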

Additional observations from a re-analysis of the deposited data

How the results depend on the processing

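Each of the 10 genes was fitted under 15 alternatives, and none changed direction. Ccnd1, Cdk4, Cdkn1a and Cdkn1c also kept their side of the threshold in all 15. With 1 library left out, 2 to 5 of the 10 were lower, and over all genes 2305 to 3704 were called, 1073 to 1819 lower and 1221 to 1885 higher. Library size alone gave 3274 genes lower. In the same leave-one-out fits 4 to 6 pocket protein and E2F genes were lower and 0 to 1 higher (1 with at least 5 CPM in 3 libraries), 1 to 2 turnover genes lower and 0 to 1 higher (0 with library size alone), and 8 to 14 genes of G2 and mitosis lower (8 with no low-count filter). Of the p53 targets 2 were lower with library size alone or with a term for the 2 libraries lacking Y-linked reads, chosen after seeing the data, and 3 with no low-count filter. The cause was not tested, beyond fewer samples where a library is left out. Same-numbered replicates did not deviate together (correlations of -0.26, 0.02 and 0.02), so the numbers give no sign of a pairing. The highest correlations between groups were 0.31 (IgG replicate 1 with 5E1 replicate 3) and 0.20 (IgG replicate 2 with 5E1 replicate 1). A pairing in another order was not tested. With the replicate block 3220 genes were called, 5 of the 10 were lower and 3 higher, and the differences in the 4 ratios stayed the same by construction (exact sign permutation p = 0.25, the smallest it allows).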
